A study of Homo sapiens with 1536 samples.

Results

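AKT, mTOR and IGF1 receptor inhibitors block successive steps of one growth signalling route, and 7 of them were among the 180 compounds tested, of which 6 others are not analysed here. The members were chosen by their listed target, not by their readout. AZD5363 (capivasertib) and AT7867 target AKT, Everolimus and KU0063794 target mTOR, and Linsitinib (OSI-906), BMS536924 and BMS754807 target the IGF1 receptor. Together they filled 56 wells, 8 for each compound, and all of these wells were used.

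The readout was QMAP-Seq, in which a pool of barcoded cells is treated in 1 well and the cells of each kind are counted by sequencing their barcodes. The pool combined 5 breast cancer cell lines, each carrying inducible Cas9 and 12 sgRNAs. BT-20, MDA-MB-231 and HCC-38 are triple-negative, SKBR3 is HER2+ and ZR-75-1 is ER+. Of the sgRNAs, 11 target a gene and sgNT stands for a set of non-targeting guides. All cells, those of the DMSO wells included, received doxycycline at 100 ng/mL for 7 days before treatment, so every well held the same knockouts, and treatment with compound or DMSO then lasted 72 h. Each compound was given at 4 doses in 2 replicate wells, and 96 wells received DMSO. Everolimus was given at 1, 10, 100 and 1000 nM and the other members at 10, 100, 1000 and 10000 nM. The value of a line in a well is the mean relative cell number over its 12 sgRNAs, in percent of DMSO, so it describes a population made mostly of knockout cells, cultured in the same well as the other lines.

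The IGF1 receptor is a receptor tyrosine kinase that, once bound by its ligand, activates PI3 kinase and through it the kinase AKT. AKT relieves the inhibition of mTOR complex 1, which drives protein synthesis and holds autophagy in check. Everolimus, an analog of rapamycin, binds the protein FKBP12 and this complex inhibits mTOR complex 1, whereas KU0063794 occupies the ATP site of the mTOR kinase itself. The IGF1 receptor inhibitors of this group also inhibit the closely related insulin receptor.

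Cells were told apart by an 8-base barcode read together with the sgRNA. The barcodes are shown because every line value below was made from reads that carry one of them:
ZR-75-1: atcactgg
SKBR3: cggtgacc
HCC-38: tacagagg
MDA-MB-231: taacagtt
BT-20: attgtcaa
Any pair of the 6 barcodes, that of the cell spike-in standards included, differed at 4 to 8 positions.

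In the DMSO wells the relative cell number averaged 100.9% to 102.1% in every line. The SD over the 96 wells ran from 10.6% in BT-20 to 16.1% in ZR-75-1. The wells of the 7 compounds held 82446 to 1404339 reads (median 666956), and the DMSO wells 155067 to 986006. Reads on barcode pairs that were never made took 0.123% to 2.37% of the reads in the members' wells and up to 0.924% in the DMSO wells, and 11 of the 56 wells lay above every DMSO well. Their part in the results was not tested. Below, a line is said to fall when limma's adjusted p for its log2 difference from DMSO was under 0.05. All these comparisons share the DMSO wells, and their p-values measure the spread between wells.

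By their titles, the DMSO wells of 1 dose level and replicate stood on 2 plates of their own, and the titles of compound wells give a dose level and replicate but no plate. If compound wells stood on the plates of their level, comparisons between doses run across plates. So do those of Everolimus at matched dose, as its 10, 100 and 1000 nM wells carry a dose level 1 above those of the other members. Over the 8 sets of plates the mean log2 value of the DMSO wells lay -0.15 to 0.12 from their average in ZR-75-1, and closer in the other lines. Counts and some calls that change with a term for these sets in the fit, added after the values were seen, are given beside the results. This plate-set term has 1 level for each dose level and replicate. It does not separate the 2 plates of a set, and it stands for plates only if compound wells stood on those of their level.

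Over the 7 compounds, 64 of 140 line and dose combinations fell below DMSO and 1 lay above it. Over all compounds analysed 31.9% fell and 1.61% rose. The share grew with dose. None of the members except Everolimus lowered any line at 10 nM, where 5 of 35 combinations fell (10% over all compounds). At 100 nM 8 of 35 fell (21.6%), at 1000 nM 19 of 35 (34.4%) and at 10000 nM 28 of 30 (65.2%). The median log2 difference from DMSO of the members was -0.33 at 1000 nM, against -0.15 over all compounds, and -1.01 against -0.70 at 10000 nM. By line the counts were close, from 12 of 28 in ZR-75-1 and BT-20 to 14 of 28 in SKBR3.

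**Figure D1:**
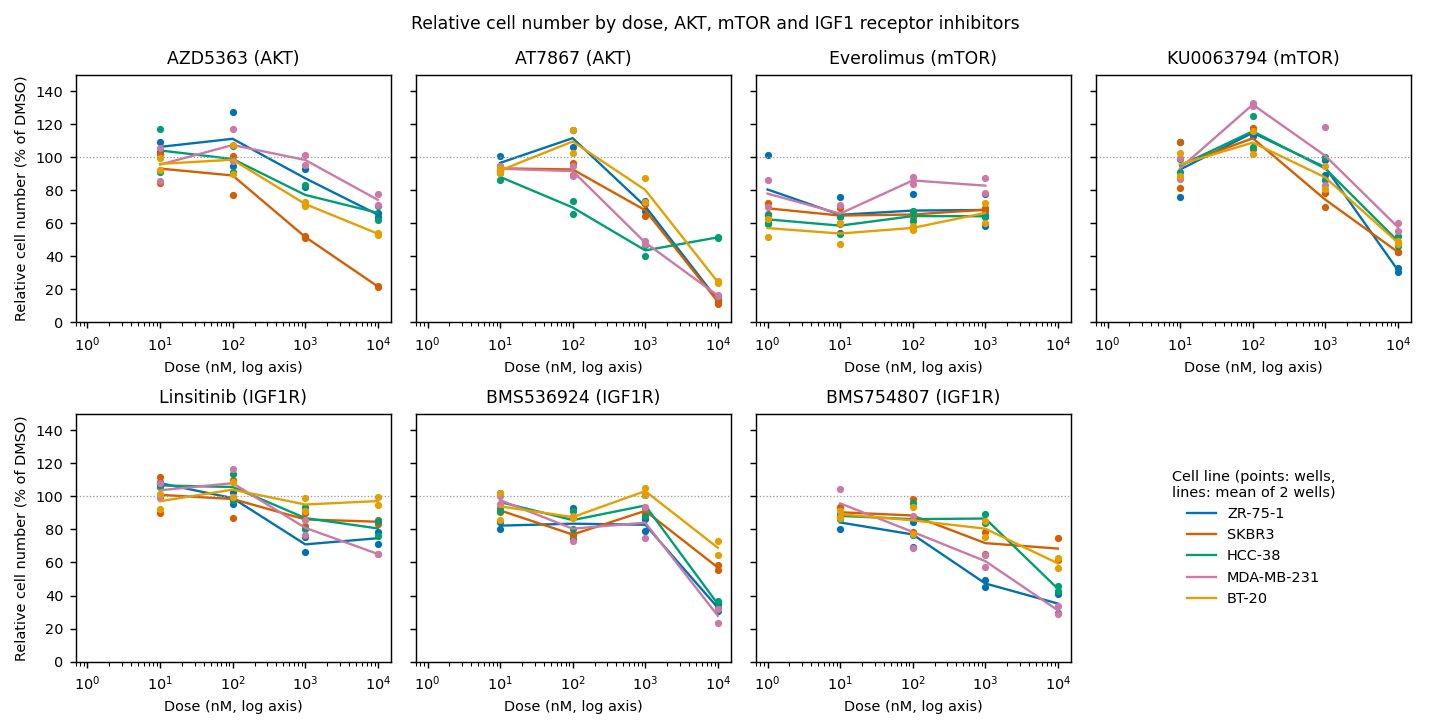
Relative cell number (percent of DMSO, linear axis) against dose (nM, log axis) for each of the 7 compounds, with points for the 2 wells and lines through their mean, coloured by cell line. The Everolimus lines run nearly level between 1 and 1000 nM, while AT7867 brought 4 of the 5 lines under 25% at 10000 nM.

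AZD5363 lowered SKBR3 far more than the other lines. At 10000 nM the wells of SKBR3 held 21.1% and 22.2% of the DMSO cell number, a mean of 21.7% ± 0.758 (SD, n = 2), or a log2 difference of -2.21 (limma adjusted p = 1.3e-50). The BT-20 wells held 53.03% and 54.2%, and the ZR-75-1 wells 63.9% and 66.4%. HCC-38 held 70.4% and 62.1%, and MDA-MB-231 held 77.5% and 70.7%. All 5 lines fell at this dose, and neither SKBR3 well came near a well of another line. At 1000 nM the SKBR3 wells held 52.3% and 50.98%. BT-20 (71.6% ± 2.08, n = 2) and HCC-38 (77.1% ± 8.66) also fell at that dose, while ZR-75-1 (87.2% ± 7.87) and MDA-MB-231 (98.3% ± 4.11) did not pass the test. No line passed at 10 or 100 nM.

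AT7867, the other AKT inhibitor, gave the lowest values of the group and left a different line least affected. At 10000 nM the ZR-75-1 wells held 14.3% and 12.5%, the SKBR3 wells 13.6% and 11.4%, and the MDA-MB-231 wells 16.1% and 16.3%. BT-20 held 24.8% and 23.9%. The HCC-38 wells, with a mean of 51.4% ± 0.623 (SD, n = 2), lay above all of these. Against DMSO the log2 difference was -3.01 in SKBR3 (limma adjusted p = 7.4e-84), the largest fall of any member in any line, and -0.98 in HCC-38 (adjusted p = 3.5e-16). Both 10000 nM wells had few reads, 82446 and 256949.

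HCC-38 responded to AT7867 at lower doses than the other lines did. At 100 nM its wells held 65.3% and 73.7% (log2 difference -0.55, limma adjusted p = 8.9e-06), and it was the only line of the 5 to fall at that dose. At 1000 nM they held 40.4% and 46.7%, and the MDA-MB-231 wells 49.3% and 47.2%. ZR-75-1 (70.2% ± 4.40, n = 2), SKBR3 (67.8% ± 5.09) and BT-20 (80.1% ± 9.93) fell less. From 1000 to 10000 nM, a step added after the values were seen, the log2 value of the 4 lines other than HCC-38 changed by a further -1.58 to -2.44. HCC-38 differed by 0.24 between these doses (95% interval -0.07 to 0.56, limma adjusted p = 0.33). Its order among the lines therefore turned with dose, from the lowest at 100 and 1000 nM to the highest at 10000 nM.

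Compared with each other, the AKT inhibitors differed in 7 of 20 line and dose combinations. Over all pairs of compounds of the table at matched dose 42.4% differed. At 10000 nM AT7867 lay below AZD5363 in ZR-75-1 (limma log2 difference -2.28, SE 0.25, adjusted p = 8.2e-19), and the difference was -2.19 in MDA-MB-231, -1.14 in BT-20 and -0.80 in SKBR3, all past the threshold. In HCC-38 it was -0.36 (95% interval -0.68 to -0.05, adjusted p = 0.055). At 1000 nM AT7867 was lower in MDA-MB-231 (-1.03) and HCC-38 (-0.82), whereas in SKBR3 the difference was 0.39 (interval 0.02 to 0.76, adjusted p = 0.089). At 10 nM none of the 5 lines passed.

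**Figure D2:**
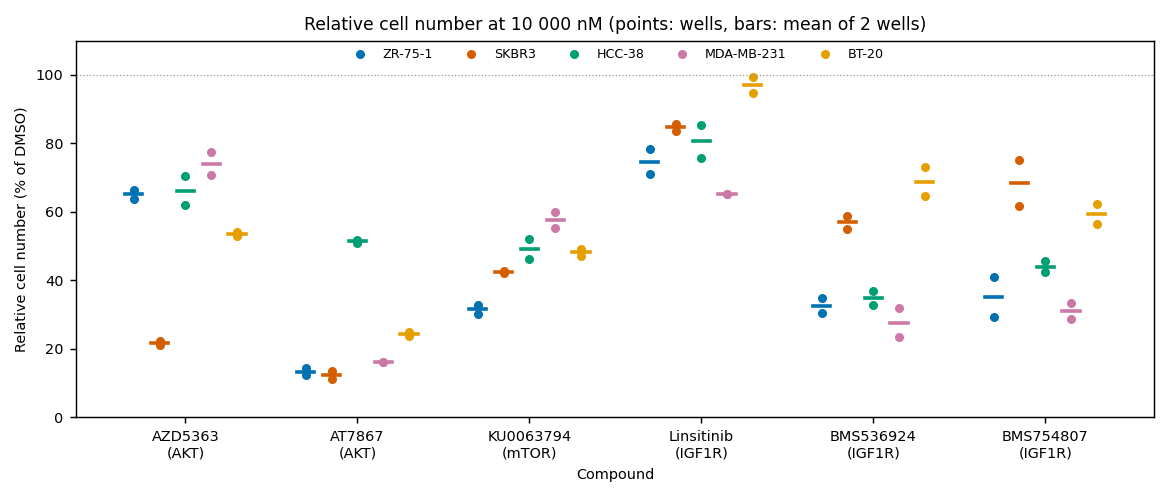
Relative cell number (percent of DMSO) at 10000 nM for the 6 members given at that dose, with points for the 2 wells and bars for their mean, coloured by cell line. SKBR3 stands apart as the lowest line under AZD5363, HCC-38 as the highest under AT7867, and no line fell below 65% under Linsitinib.

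Everolimus lowered cell number at every dose given, and its highest dose did not lie detectably below its lowest in any line. At 1 nM the BT-20 wells held 62.6% and 51.4%, the HCC-38 wells 64.99% and 59.7%, and the SKBR3 wells 72.4% and 65.6%. MDA-MB-231 held 86.3% and 69.5%. The ZR-75-1 wells, at 101.02% and 59.8%, were far apart, and this line did not pass the test at 1 nM (limma adjusted p = 0.090). At this dose 4 of 5 lines fell, against 15% of the combinations over the compounds given at 1 nM.

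At 10 nM all 5 lines fell under Everolimus. The mean was lowest in BT-20 (53.7% ± 8.92, n = 2) and reached 65.8% ± 7.60 in MDA-MB-231. Counted from the lowest value of all compounds at that dose, Everolimus ranked 5 in BT-20 and 12 to 14 in the other lines. MDA-MB-231 did not pass at 100 nM (85.9% ± 3.06, adjusted p = 0.19) or 1000 nM (82.7% ± 6.71, adjusted p = 0.081), so that 17 of 20 combinations fell in all, and 19 of 20 with the plate-set term. No line came under 50% as a mean of its wells.

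Between 1 and 1000 nM the log2 value of Everolimus differed by -0.21 in ZR-75-1 (95% interval -0.69 to 0.27), -0.02 in SKBR3 (-0.39 to 0.36) and 0.04 in HCC-38 (-0.27 to 0.36). For BT-20 it was 0.22 (-0.08 to 0.52) and for MDA-MB-231 0.09 (-0.27 to 0.46). None passed the test, and the intervals leave room for a change of up to 0.69 downwards in ZR-75-1. The highest dose lay below the lowest in 25 of 35 combinations of compound and line, against 58.4% over all compounds. These were 5 of 5 lines for AT7867, KU0063794 and BMS536924, 4 of 5 for AZD5363 and BMS754807, 2 of 5 for Linsitinib and 0 of 5 for Everolimus.

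KU0063794 lowered cell number mainly at its highest dose. At 10000 nM the ZR-75-1 wells held 32.8% and 30.2%, the SKBR3 wells 42.8% and 42.3%, and the BT-20 wells 49.3% and 47.2%. HCC-38 held 52.1% and 46.2% and MDA-MB-231 held 60.0% and 55.2%. All 5 lines fell, with log2 differences from -0.81 in MDA-MB-231 (limma adjusted p = 6.9e-09) to -1.68 in ZR-75-1 (adjusted p = 8.3e-20). At 1000 nM only SKBR3 fell (69.9% and 78.6%), and the means of the other lines were 87.7% to 100.8%. 

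The single value above DMSO among the members was that of KU0063794 at 100 nM in MDA-MB-231, whose wells held 130.7% and 132.9% (log2 difference 0.38, limma adjusted p = 0.012). DMSO wells of this line reached 139.1%. The other lines had means of 108.8% to 115.7% at that dose and did not pass the test. The first of these wells had the highest share of reads on never-made barcode pairs of the group, 2.37%, and the other had 0.55%. The part of these reads in the value was not tested.

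At the doses they shared, the mTOR inhibitors differed from each other in 11 of 15 combinations, with Everolimus lower in each. Over all pairs of compounds 18.5% (10 nM) to 48.1% (1000 nM) differed at these doses. At 100 nM all 5 lines differed, with log2 differences of -0.62 in MDA-MB-231 to -0.93 in BT-20. At 10 nM 4 of 5 differed, of which MDA-MB-231 did not pass with the plate-set term (adjusted p = 0.076), and at 1000 nM 2 of 5, HCC-38 (-0.53) and BT-20 (-0.41). With that term Everolimus was again lower in 11 of 15, so calls changed in both directions. In SKBR3 at 1000 nM the difference was -0.12 (95% interval -0.49 to 0.25, limma adjusted p = 0.70). As a mean over 10, 100 and 1000 nM, with 6 wells against 6, the log2 difference of Everolimus was -0.46 in MDA-MB-231 to -0.72 in BT-20, and all 5 lines passed.

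Beside each mTOR inhibitor stood a related compound of the table. Tacrolimus, which also binds FKBP12 but whose complex inhibits calcineurin and not mTOR, gave means of 92.1% to 134.6% at 10, 100 and 1000 nM. Everolimus lay below it in 14 of 15 combinations (18.5% to 48.1% differed over all pairs at these doses), with log2 differences of -0.44 to -1.21 in those that passed. In MDA-MB-231 at 1000 nM the difference was -0.42 (limma adjusted p = 0.057). With the plate-set term 15 of 15 passed. Of all pairs at matched dose 42.4% differed, and OSI027, another inhibitor of the mTOR kinase site, differed from KU0063794 in 1 of 20 combinations. That was HCC-38 at 10000 nM, where OSI027 held 33.6% and KU0063794 held 49.2% (log2 difference 0.55, adjusted p = 0.0020). The largest of the others was in ZR-75-1 at 1000 nM, with 93.8% for KU0063794 and 65.1% for OSI027 (difference 0.53, adjusted p = 0.073), so the data do not show that these compounds act alike.

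**Figure D3:**
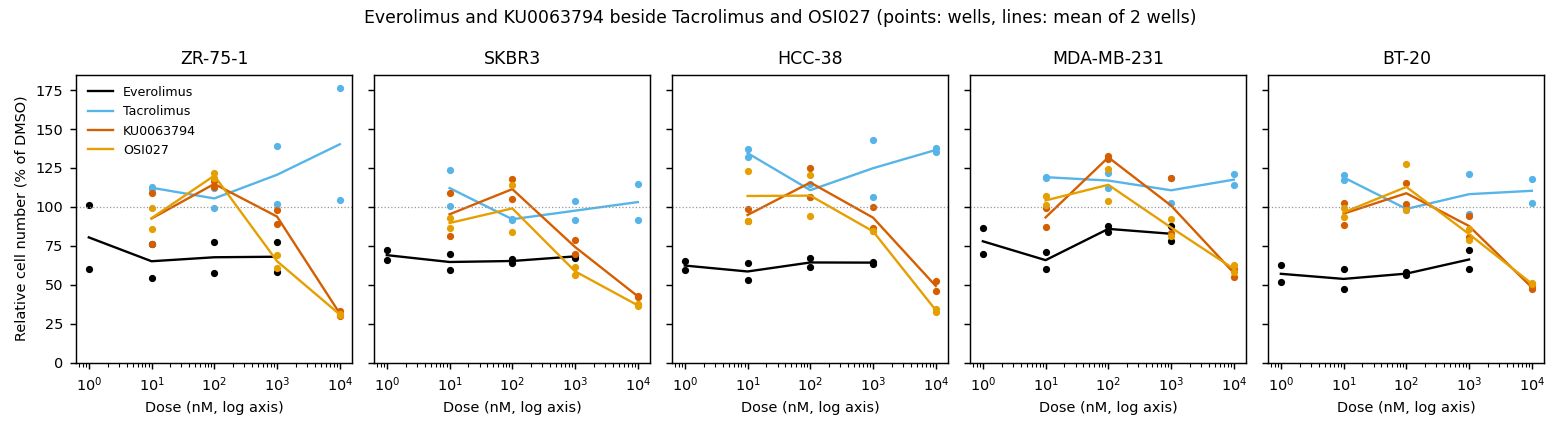
Relative cell number (percent of DMSO, linear axis) against dose (nM, log axis) for Everolimus, Tacrolimus, KU0063794 and OSI027 in each cell line, with points for the 2 wells and lines through their mean. Everolimus lay below Tacrolimus at the doses they shared, while KU0063794 and OSI027 reached 30.9% to 60.2% at 10000 nM, with OSI027 the lower in HCC-38 (33.6% against 49.2%).

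Among the IGF1 receptor inhibitors, Linsitinib changed cell number least. At 10000 nM the MDA-MB-231 wells held 65.2% and 65.1%, the ZR-75-1 wells 71.1% and 78.3%, and the HCC-38 wells 85.4% and 75.9%. These lines fell, with log2 differences of -0.63, -0.44 and -0.33. SKBR3 held 85.8% and 83.6% (difference -0.24, 95% interval -0.51 to 0.02) and BT-20 held 99.5% and 94.8% (difference -0.05, interval -0.27 to 0.16), and neither passed the limma test. At 1000 nM ZR-75-1 (70.98% ± 6.57, n = 2) and MDA-MB-231 (80.98% ± 6.42) fell, the latter with an adjusted p of 0.11 with the plate-set term. In both 10000 nM wells of Linsitinib never-made barcode pairs took over 1.8% of the reads (1.86% and 1.88%), and their part in these values was not tested.

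In 3 of 5 lines cell number fell under BMS536924 at 10000 nM alone. At 1000 nM no line fell and the means were 82.8% to 103.2%. At 10000 nM the MDA-MB-231 wells held 23.5% and 31.98%, the ZR-75-1 wells 30.4% and 34.9%, and the HCC-38 wells 32.7% and 36.8%. SKBR3 held 55.2% and 58.7%, and BT-20 held 64.8% and 72.998%. All 5 lines fell, with log2 differences of -0.55 (BT-20) to -1.88 (MDA-MB-231), and the wells of SKBR3 and BT-20 lay above all wells of the other lines. At 100 nM SKBR3 (76.9% ± 0.646, n = 2) and MDA-MB-231 (80.5% ± 10.5) fell, with limma adjusted p of 0.017 and 0.037, although neither passed at 1000 nM. With the plate-set term the adjusted p of MDA-MB-231 was 0.12.

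BMS754807 lowered 4 of 5 lines at 1000 nM. At that dose the ZR-75-1 wells held 49.5% and 45.1%, the MDA-MB-231 wells 57.2% and 64.5%, and the SKBR3 wells 64.9% and 78.6%. BT-20 fell to 80.5% ± 6.69 (n = 2), and HCC-38 (86.6% ± 3.92) did not pass. At 100 nM MDA-MB-231 alone fell (78.5% ± 13.5, limma adjusted p = 0.016, or 0.060 with the plate-set term). At 10000 nM all 5 lines fell. The MDA-MB-231 wells then held 28.7% and 33.4%, the ZR-75-1 wells 29.4% and 40.9%, and the HCC-38 wells 42.6% and 45.6%. BT-20 held 56.5% and 62.4% and SKBR3 held 61.8% and 75.1%. The last step of dose, from 1000 to 10000 nM and likewise added after the values were seen, was -0.45 in ZR-75-1 (95% interval -0.93 to 0.04) and -0.07 in SKBR3 (-0.44 to 0.31), and neither passed.

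Pairwise, BMS536924 and BMS754807 differed in 3 of 20 combinations, all at 1000 nM, where BMS536924 was higher by 0.81 in ZR-75-1 (limma adjusted p = 0.0030), 0.36 in BT-20 (adjusted p = 0.044) and 0.46 in MDA-MB-231 (adjusted p = 0.032). At 10000 nM none of the 5 lines passed. Their differences ran from -0.34 in HCC-38 (95% interval -0.66 to -0.03) to 0.21 in BT-20 (-0.09 to 0.51). Linsitinib lay above BMS536924 in 5 of 5 lines at 10000 nM, with BMS536924 minus Linsitinib at -0.50 (BT-20) to -1.25 (MDA-MB-231). It lay above BMS754807 in 4 of 5, with BMS754807 minus Linsitinib at -0.71 (BT-20) to -1.11 (ZR-75-1). The exception was SKBR3, where this difference was -0.31 (interval -0.69 to 0.06, adjusted p = 0.20).

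Across all 21 pairs of the 7 compounds, 37.7% of the comparisons at matched dose passed the limma test, with p-values adjusted over all pairs of the table. Pairs with the same target differed in 33.7% of their comparisons and pairs with different targets in 38.98%. The difference between these shares was not tested. At 10 nM, with 21 pairs in 5 lines, 27 comparisons passed (18.5% over all pairs), and all 27 had Everolimus as the lower compound, of 30 comparisons with it. With the plate-set term Everolimus was lower in 19 of 30 at 10 nM. At 100 nM the number was 18 with and without that term, and at 1000 nM it was 10 with it and 7 without. At 100 nM 31 passed (34.4%), at 1000 nM 35 (48.1%) and at 10000 nM 54 of 75 (72.6%).

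At 10000 nM the order of the compounds differed between lines. In SKBR3 both AKT inhibitors lay below KU0063794 and below all 3 IGF1 receptor inhibitors. For AZD5363 the log2 differences were -0.97 from KU0063794, -1.39 from BMS536924 and -1.65 from BMS754807, all past the limma threshold. In ZR-75-1 and MDA-MB-231 AZD5363 lay above BMS536924 and BMS754807, by 1.00 and 0.91 in ZR-75-1 and by 1.43 and 1.26 in MDA-MB-231. AT7867 lay below both of them in the same lines, with differences of -0.76 or further from 0. In HCC-38 AT7867 was above BMS536924 by 0.57 (adjusted p = 0.0012).

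Over the 3 doses shared by all members (10, 100 and 1000 nM) 44 combinations of the 21 pairs with the 5 lines passed, and 50.2% did so over all pairs of the table. Everolimus was the lower compound in 24 of its 30 combinations, and 20 of the 75 without it passed. By line, Everolimus lay below 6 of 6 other members in BT-20, 5 of 6 in ZR-75-1, SKBR3 and HCC-38, and 3 of 6 in MDA-MB-231. The exceptions were AT7867 in HCC-38 (AT7867 minus Everolimus 0.05, 95% interval -0.13 to 0.23), AZD5363 in SKBR3 (0.19, -0.03 to 0.40) and BMS754807 in ZR-75-1 (0.03, -0.25 to 0.30). In MDA-MB-231 they were AT7867 (-0.06, -0.27 to 0.15), BMS754807 (-0.01, -0.22 to 0.20) and BMS536924 (0.16, -0.05 to 0.37).

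As means over their compounds, lines and these 3 doses, the log2 difference from DMSO was -0.24 for the AKT inhibitors (n = 2 compounds), -0.32 for the mTOR inhibitors (n = 2) and -0.20 for the IGF1 receptor inhibitors (n = 3). The classes were not tested against each other, since an exact permutation of the compounds of 2 classes could not go below 0.1. A joint test of the 3 classes was not run. The class mean of the mTOR inhibitors joined the highest and the lowest values of the 7 compounds in HCC-38 at 100 nM, 115.7% for KU0063794 and 64.3% for Everolimus.

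To ask which line each compound affected most, the log2 value of a line was set against the mean of the other lines in the same well, as a mean over the 4 doses and relative to DMSO. Of 35 such contrasts 22 passed the limma test (49.2% over all compounds). The largest was that of SKBR3 under AZD5363, -0.64 (SE 0.043, adjusted p = 1.3e-42). SKBR3 was below the other lines in 8 of 8 wells, at -1.63 to -0.06, while this contrast ran from -0.35 to 0.21 over the DMSO wells. Under the same compound ZR-75-1 (0.24) and MDA-MB-231 (0.29) were higher than the other lines, the latter at rank 5 from the highest of all compounds.

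Under Everolimus BT-20 was below the other lines in 8 of 8 wells, with a contrast of -0.24 (adjusted p = 3.5e-11) that was the lowest of all compounds for this line. MDA-MB-231 was above them by 0.28, at rank 8 from the highest. KU0063794 shared the higher MDA-MB-231 value (0.21, adjusted p = 1.8e-06), at rank 13 from the highest. Its BT-20 contrast was 0.00 (95% interval -0.06 to 0.07), so BT-20 was not detectably below the other lines. That value was at rank 29 from the lowest of all compounds for this line. AZD5363, an AKT inhibitor, was at rank 13 from the lowest (-0.03, limma adjusted p = 0.57). A low rank for BT-20 was therefore not particular to the mTOR inhibitors.

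BMS536924 and BMS754807 gave contrasts of the same sign in 4 lines. ZR-75-1 was lower (-0.20 and -0.35), MDA-MB-231 was lower (-0.21 and -0.22), BT-20 was higher (0.32 and 0.21) and SKBR3 was higher (0.12 and 0.25), and all 8 passed. Over 10, 100 and 1000 nM alone 3 of the 8 passed, BT-20 under both compounds (0.12 and 0.12) and ZR-75-1 under BMS754807 (-0.30). The ZR-75-1 contrast of BMS754807 was at rank 7 from the lowest of all compounds and the SKBR3 contrast at rank 4 from the highest. The others were less extreme. MDA-MB-231 was at ranks 42 (BMS536924) and 40 (BMS754807) from the lowest, and BT-20 at ranks 31 and 49 from the highest. Under BMS536924 ZR-75-1 was at rank 22 from the lowest and SKBR3 at rank 17 from the highest. For MDA-MB-231 the BMS754807 contrast had the opposite sign, 0.17, when sgNT cells alone were used. Over these 3 doses the SKBR3 contrasts were -0.03 and 0.09, those of MDA-MB-231 -0.03 and -0.06, and that of ZR-75-1 under BMS536924 was -0.12. Linsitinib gave 1 contrast past the threshold, a higher BT-20 (0.13), at rank 76 from the highest and 99 from the lowest of all compounds.

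A mean over doses hid the turn of HCC-38 under AT7867. Its contrast over the 4 doses was 0.11 (adjusted p = 0.060), but over 10, 100 and 1000 nM alone it was -0.41 (adjusted p = 8.5e-12). In the 6 wells at those doses it ran from -0.67 to -0.06, and in the 10000 nM wells it was 1.61 and 1.76. AT7867 further gave a lower SKBR3 (-0.16) and MDA-MB-231 (-0.21) and a higher BT-20 (0.28). They were at ranks 53 (SKBR3) and 43 (MDA-MB-231) from the lowest and 39 (BT-20) from the highest of all compounds. Without the 10000 nM wells the SKBR3 contrast was 0.08.

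**Figure D4:**
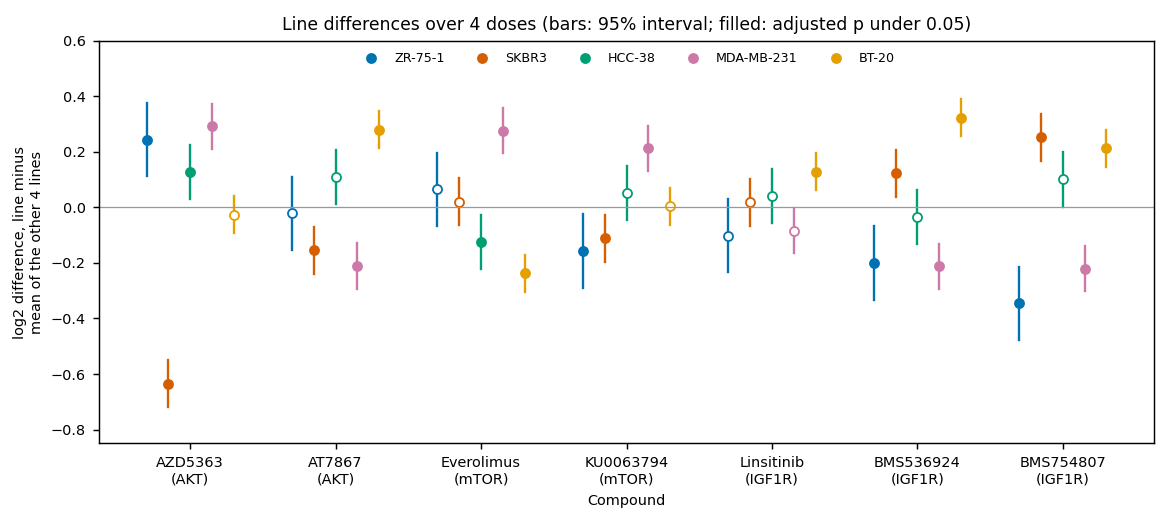
Log2 difference between a line and the mean of the other 4 lines of the same well, as a mean over the 4 doses and relative to DMSO, for each of the 7 compounds. Points are estimates, bars 95% intervals, and filled points have a limma adjusted p under 0.05; SKBR3 under AZD5363, at -0.64, is the farthest from 0.

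The knockouts were then compared with sgNT within the same wells and line, as a mean over the 4 doses. Over the 7 members, 5 lines and 11 sgRNAs 1 combination passed the limma test (0.982% over all compounds), and 61 (15.8%) had an unadjusted p under 0.05, against 8.14% over all compounds. In each well the 11 sgRNAs of a line are set against the same sgNT value, so these tests are not independent. A low sgNT value alone raises all 11, and the difference between the shares was not tested. The combination that passed was sgKEAP1 in MDA-MB-231 under AT7867. KEAP1 targets the transcription factor NRF2 for degradation. The guide, shown because this value rests on it, was sgKEAP1: cagcaccgttcatgacgtgg

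At 10 nM AT7867 the sgKEAP1 cells stood at 112.8% and 258.96% of DMSO in the 2 wells, and the sgNT cells at 47.3% and 71.6%. At 100 nM sgKEAP1 stood at 82.2% and 107.1% and sgNT at 83.7% and 86.1%. At 1000 nM the values were 49.5% and 70.1% against 31.6% and 40.1%, and at 10000 nM 17.02% and 15.5% against 12.99% and 15.99%. sgKEAP1 was higher in 6 of 8 wells, and the largest gap was at the lowest dose, where the line as a whole did not fall. In those 10 nM wells sgNT ranked 12 and 11 from the highest of the 12 sgRNAs. The log2 difference was 0.61 (SE 0.16, limma adjusted p = 0.017), and in DMSO wells the same log2 ratio varied with an SD of 0.48 (n = 96). It was 0.34 when set against the median sgRNA of the line and 0.52 by edgeR on the reads (edgeR adjusted p = 0.099). Neither passed, and over all alternatives the adjusted p ran from 0.017 to 0.96.

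By edgeR 7 combinations passed (1.91% over all compounds), none of them the limma one. They were sgATF4 in SKBR3 under AZD5363, sgSLC35F2 in HCC-38 under Linsitinib, and sgERN1, sgHSF2, sgKEAP1, sgNFE2L2 and sgXBP1 in ZR-75-1 under BMS536924. At the highest dose alone 6 passed by limma (1.15%), all under BMS536924 and all above sgNT. In ZR-75-1 these were sgATF3, sgERN1, sgHSF2 and sgXBP1 (1.37 to 1.56 on the log2 scale), and in MDA-MB-231 sgHSF2 (1.23) and sgKEAP1 (1.18). In those ZR-75-1 wells sgNT stood at 20.8% and 6.61%, while the median of the other sgRNAs was 31.1% and 33.004%. In MDA-MB-231 sgNT stood at 16.6% and 13.4%, with medians of 25.5% and 34.4%, so sgNT lay below the median of the others in each of these wells.

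ATG7 is needed to form autophagosomes and ATF4 induces genes of amino acid synthesis and transport, both of which mTOR signalling controls. Under Everolimus the sgATG7 and sgATF4 cells differed from sgNT by -0.14 to 0.25 over the lines, and under KU0063794 by -0.21 to -0.01. None passed, with limma adjusted p of 0.66 or higher. The largest sgRNA differences of the other members did not pass the limma test either, though the first of these passed by edgeR (edgeR adjusted p = 0.029). They were sgKEAP1 in ZR-75-1 under BMS536924 (1.05, adjusted p = 0.21), AZD5363 (0.87, adjusted p = 0.41) and Linsitinib (0.77, adjusted p = 0.55), sgHSF1 in ZR-75-1 under AT7867 (0.89, adjusted p = 0.20) and Everolimus (0.41, adjusted p = 0.84), and sgSLC35F2 in MDA-MB-231 under KU0063794 (-0.33, adjusted p = 0.59). The study's methods left out sgKEAP1 and sgHSF1 of ZR-75-1 for their high variation. Under BMS754807 the largest was sgATG7 in MDA-MB-231 (-0.49, adjusted p = 0.10), or -0.11 (adjusted p = 0.86) when set against the median sgRNA of the line. In these wells 0 to 2 of the 11 other sgRNAs lay above sgNT. The sgATG7 cells lay below sgNT in 8 of 8 wells, from 19.4% against 38.01% in 1 well at 10000 nM to 103.7% against 149.2% in 1 at 10 nM.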

How the data were processed

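Read counts per cell line-sgRNA pair and well were deposited by the authors, who split wells with bcl2fastq (submitters' processing notes) and allowed 1 mismatch per barcode. The deposited relative cell numbers are a ratio, in percent, of the cell number read from each well's curve of 5 cell spike-in standards, over the median of the DMSO wells. Recomputing them from the counts agreed to within 5.32e-05 on the log2 scale, and the DMSO values were made the same way. Members and lists were chosen with earlier results of these data known.

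The sgRNAs of a line were averaged, taken to log2 and fitted with limma 3.58.1 in R 4.3.3 over all compound and DMSO wells. One spread per line was shared (SD 0.153 to 0.246 on the log2 scale, 791 residual degrees of freedom), since 2 wells have none of their own, and p-values were Benjamini-Hochberg adjusted over the whole table. The study describes replicates as distinct samples. Line and sgRNA contrasts were taken within wells. edgeR 4.0.16 was applied to the sgRNA counts as an alternative. All members were named. Of the sgRNA results, those past the threshold, sgATG7 and sgATF4 for the mTOR inhibitors, and the largest of each member were named, and the edgeR and highest-dose sgRNAs were named after their values were seen. Titles of DMSO wells tie each dose level and replicate to plates, so same-numbered wells of a dose level may share them (correlations of replicate differences between compounds -0.55 to 0.81, 10 of 21 over 0.1). A replicate block, and a term for dose level and replicate added after the data were seen, were fitted as alternatives.

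On simulated data the test against DMSO recovered 78% of changes of -0.5 and 100% of -1, with 5.82% false calls. The test of pairs recovered 67.8% with 5.28% false calls, and the sgRNA test 59% at 0.5 and 95% at 1 with 5.52%. Against DMSO, 100 of 3480 values had been changed by -0.5 and 100 by -1. Of 9570 sgRNA values, 100 had been changed by 0.5 and 100 by 1. In the measured wells 31.9% of the values fell below DMSO. Whether the rates of recovery and of false calls hold for the measured wells was not tested. The wells of a replicate pair differed by a chi-square of 39.4 or more per degree of freedom, a comparison with counting error alone that cannot tell a repeated PCR from a separate well. Intervals cover the spread between wells. The lowest count of a pair in a member's well was 32 reads. Figures were drawn with matplotlib 3.10.9.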

Additional observations from a re-analysis of the deposited data

Results flagged for a closer look

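The response of a line differed from that of the other lines in 22 of 35 contrasts, tested by limma on the log2 difference within wells. Higher than the other lines were ZR-75-1 (0.24), HCC-38 (0.13) and MDA-MB-231 (0.29) under AZD5363, BT-20 under AT7867 (0.28), MDA-MB-231 under Everolimus (0.28) and KU0063794 (0.21), and BT-20 under Linsitinib (0.13). The same held for SKBR3 and BT-20 under BMS536924 (0.12 and 0.32) and BMS754807 (0.25 and 0.21). Lower than the other lines were SKBR3 under AZD5363 (-0.64), SKBR3 and MDA-MB-231 under AT7867 (-0.16 and -0.21), HCC-38 and BT-20 under Everolimus (-0.12 and -0.24), and ZR-75-1 and SKBR3 under KU0063794 (-0.16 and -0.11). ZR-75-1 and MDA-MB-231 were lower under BMS536924 (-0.20 and -0.21) and BMS754807 (-0.35 and -0.22). Not all of these stood out among all compounds. SKBR3 under KU0063794 was at rank 71 from the lowest and BT-20 under Linsitinib at rank 76 from the highest.

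Outside the measured pairs, reads on barcode pairs that were never made took up to 2.37% of a well of the 7 compounds, in a well of KU0063794 at 100 nM, while no DMSO well had more than 0.924%.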

How the results depend on the processing

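Of the single values past the threshold, 42.4% stayed past it in the same direction under every alternative tried. Over 4049 recomputed values 3650 kept direction and side of the threshold, 9.63% kept the direction alone and 9 reversed. The count of line and dose combinations below DMSO was 64 and ran from 43 to 74, and the highest-against-lowest-dose count of 25 from 18 to 28. With sgNT cells alone, the set of non-targeting guides in place of the mean over 12 sgRNAs, 21.8% of the matched-dose pair comparisons differed instead of 37.7%. Those over the shared doses then numbered 26 instead of 44, the line contrasts 8 instead of 22 and the Everolimus and Tacrolimus differences 6 instead of 14. On that reading 6 values reversed: AT7867 against Everolimus at 10 nM in ZR-75-1 (-0.25), AZD5363 against BMS754807 in MDA-MB-231 at 1000 nM (-0.16) and over the shared doses (-0.0761), AZD5363 against Linsitinib at 1000 nM in BT-20 (0.16), BMS754807 against Linsitinib over the shared doses in MDA-MB-231 (0.0369) and the MDA-MB-231 contrast of BMS754807 (0.17). None of the 6 passed in the reversed direction (limma adjusted p 0.47 to 0.93). With 10, 100 and 1000 nM alone 13 line contrasts passed and 3 reversed: SKBR3 under AT7867 (0.0804), ZR-75-1 under KU0063794 (0.0042) and SKBR3 under BMS536924 (-0.0312). These 3 did not pass either (limma adjusted p 0.23 to 0.98). The cause was not tested. On the percent scale 0 differences between KU0063794 and OSI027 passed, instead of 1. For the sgRNAs, in place of 1 result, 0 passed when set against the median sgRNA of the line, 6 at the highest dose alone and 7 by edgeR. Leaving out a replicate gave 52 to 56 combinations below DMSO, 22.6% to 29.7% of matched-dose pair comparisons, 28 to 37 over the shared doses, 17 to 19 line contrasts, 24 to 25 highest-dose falls and 1 to 4 sgRNA results. Class means then ran from -0.25 to -0.23 (AKT), -0.35 to -0.29 (mTOR) and -0.20 to -0.20 (IGF1R).

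With the replicate number as a block, 64 combinations, 37.7% of matched-dose pair comparisons, 44 shared-dose pairs, 22 line contrasts, 25 highest-dose falls and 1 sgRNA result passed, and no call changed. The replicate block moved values by a coefficient of -0.06 to 0.04 on the log2 scale. The plate-set term, with a level for each dose level and replicate, gave 63 combinations below DMSO, 36.7% of matched-dose pair comparisons, 44 shared-dose pairs, 22 line contrasts and 25 highest-dose falls. Cell line-sgRNA pairs had as few as 32 reads in the members' wells, and without the pairs of lowest depth 1 sgRNA result passed.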
